A study of Mus musculus with 2 samples.

Results

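Open chromatin was examined around 9 genes for tumour necrosis factor (TNF) receptors that T cells carry: Tnfrsf4, Tnfrsf18, Tnfrsf9, Tnfrsf8, Tnfrsf14, Tnfrsf1b, Tnfrsf25, Tnfrsf1a and Fas. They were named as a list, are 9 of 21851 protein-coding genes of the annotation, and all 9 matched it. The data are ATAC-seq, in which a transposase cuts accessible DNA, from mouse T helper 2 (Th2) cells, the CD4 T cells that make type 2 cytokines. The cells were primary cells of strain C57BL/6NJ, in 1 group of 2 biological replicates that share a donor record, with age, sex, genotype and treatment not given and no control. The authors' lists held 51557 open regions in replicate 1 and 60891 in replicate 2, with median fold enrichments of 5.58 and 5.65. The fold enrichment is the height of the signal at a region's summit over its local background, as the authors deposited it, and accessibility is not a measure of transcript or protein.

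TNF receptors are surface proteins that bind trimeric ligands of the TNF family and pass the signal on through adaptors. Most of those on T cells recruit TRAF proteins, which lead to NF-kB activation, survival and cytokine production, and several appear or increase after the antigen receptor is engaged. Tnfrsf25, Tnfrsf1a and Fas also have a death domain in the cytoplasmic part, through which adaptors such as Tradd and Fadd are recruited, and which can lead to caspase activation.

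Each gene was given a window that runs from 20 kb before its body to 20 kb after it, and regions of the replicates that overlapped by at least 1 bp were joined into shared regions. The 9 windows held 54 distinct shared regions, of 44058 on the main chromosomes. The 151 bp around the summits of 9 of them are printed here from the + strand of GRCm38, 5′ to 3′, because the results below turn on them: the promoters and the intergenic region of the Tnfrsf4 and Tnfrsf18 pair, the 3 receptor promoters with an NF-kB match, and 3 regions of the Tnfrsf1b and Fas loci for contrast. Capitals mark matches, on either strand, to any of 9 consensus sequences. Those of AP-1, the Fos and Jun dimers, were read as TGANTCA. Those of the GATA family of zinc finger factors were read as GATAA, and those of SP factors, which bind GC-rich promoters, as GGGCGG. The others were NF-kB, CTCF, NFAT, ETS, RUNX and STAT6. The letters of NFAT, ETS, RUNX and STAT6 stand with their results, and those of NF-kB and CTCF are not spelled out here.
Between Tnfrsf4 and Tnfrsf18, chr4:156022067-156022217: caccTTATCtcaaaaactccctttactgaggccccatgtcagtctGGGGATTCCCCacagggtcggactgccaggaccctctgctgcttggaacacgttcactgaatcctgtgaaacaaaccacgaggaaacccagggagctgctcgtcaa
Tnfrsf4 promoter, chr4:156013693-156013843: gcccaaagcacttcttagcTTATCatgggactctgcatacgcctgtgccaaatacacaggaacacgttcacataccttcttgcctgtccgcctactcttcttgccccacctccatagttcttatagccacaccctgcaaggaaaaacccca
Tnfrsf18 promoter, chr4:156026232-156026382: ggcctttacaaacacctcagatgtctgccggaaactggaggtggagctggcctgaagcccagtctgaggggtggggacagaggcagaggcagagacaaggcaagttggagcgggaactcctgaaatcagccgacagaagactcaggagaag
Tnfrsf9 internal start, chr4:150927869-150928019: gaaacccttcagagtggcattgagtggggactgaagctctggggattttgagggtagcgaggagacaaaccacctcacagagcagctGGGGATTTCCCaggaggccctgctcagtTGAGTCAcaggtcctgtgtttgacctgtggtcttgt
Tnfrsf8 promoter, chr4:145315182-145315332: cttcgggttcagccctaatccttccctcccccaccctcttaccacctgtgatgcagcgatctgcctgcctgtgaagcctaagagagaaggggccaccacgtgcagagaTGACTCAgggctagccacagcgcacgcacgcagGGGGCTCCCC
Tnfrsf25 promoter, chr4:152115966-152116116: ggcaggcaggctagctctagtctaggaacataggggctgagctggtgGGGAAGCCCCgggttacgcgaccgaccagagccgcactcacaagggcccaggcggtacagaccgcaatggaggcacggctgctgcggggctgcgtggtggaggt
Upstream of Tnfrsf1b, chr4:145254596-145254746: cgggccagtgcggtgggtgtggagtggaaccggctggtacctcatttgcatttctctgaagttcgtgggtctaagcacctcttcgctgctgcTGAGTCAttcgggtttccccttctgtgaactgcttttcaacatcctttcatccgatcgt
Fas promoter, chr19:34290506-34290656: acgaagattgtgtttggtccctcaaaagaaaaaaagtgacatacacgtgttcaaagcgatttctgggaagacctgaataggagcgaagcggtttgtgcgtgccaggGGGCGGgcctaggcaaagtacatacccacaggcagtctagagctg
Fas intron 1, chr19:34299331-34299481: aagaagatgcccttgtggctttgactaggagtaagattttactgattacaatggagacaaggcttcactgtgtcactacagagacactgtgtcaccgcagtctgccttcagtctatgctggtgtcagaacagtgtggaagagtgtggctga

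The region between Tnfrsf4 and Tnfrsf18 carries an NF-kB match of 11 capitals, made of overlapping matches, and a GATA match at its left end. The Tnfrsf9 window has overlapping NF-kB matches followed by an AP-1 match. The Tnfrsf8 window has an AP-1 match and, at its right end, an NF-kB match, and that of Tnfrsf25 has an NF-kB match. The Tnfrsf18 promoter and Fas intron 1 have no match to any of the 9 consensus sequences in these 151 bp. A match is a likeness of letters and was not tested as a binding site.

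All 9 receptor genes had an open promoter, defined as a shared region that overlaps the 1 kb on either side of an annotated start site, against 58.3% of all protein-coding genes. The median number of shared regions in a window was 8 for the 9 receptor genes and 2 over all protein-coding genes. In gene lists described below it was 7.5 for T cell and for Th2 markers and 6 for the ligands. For signal transducers it was 4, for other receptors of the family 3, for B cell markers 2, and for myeloid and for CD8 or natural killer markers 0. Tnfrsf8 had 11, Tnfrsf9 had 10, and Tnfrsf4 and Tnfrsf1b had 9 each. Tnfrsf18 and Tnfrsf25 had 8 each, Tnfrsf1a and Fas 4 each, and Tnfrsf14 had 3. Tnfrsf8, at the top, had more than 98.0% of all genes, and Tnfrsf14, at the bottom, more than 51.7%. Windows differ in length, 42.7 kb for Tnfrsf18 and 88.0 kb for Tnfrsf8, and per 10 kb the highest density was that of Tnfrsf4, with 2.10 regions, and the lowest that of Fas, with 0.519. Counted window by window the regions sum to 66, since 12 of the 54 lie in more than 1 window. Of the 54, 10 covered a promoter of a receptor gene, 6 a promoter of a neighbouring gene, 14 lay elsewhere in a receptor gene body and 24 in the flanks. Regions outside promoters thus made up 38 of 54, or 70.4%, against 71.5% of all shared regions, which is near the background.

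**Figure D1:**
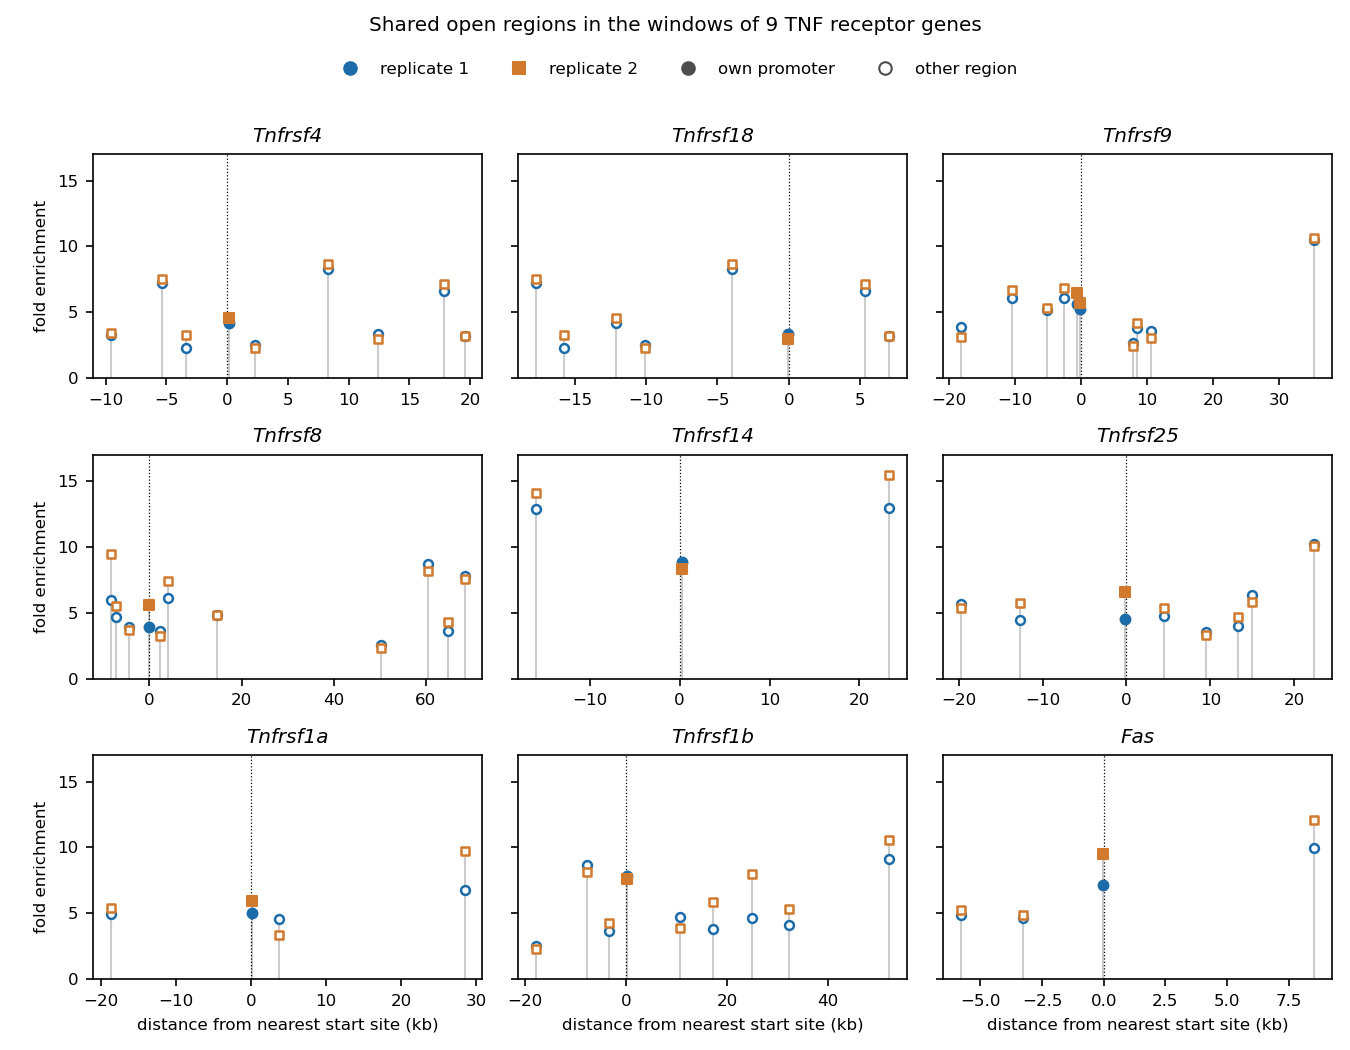
Fold enrichment (vertical axis) of each shared region against the distance of its centre from the nearest start site of the named gene (horizontal axis, kb, negative upstream), 1 panel per gene. Circles are replicate 1, squares replicate 2, and filled symbols the gene's own promoter. The panels of Tnfrsf4 and Tnfrsf18 show mostly the same regions, placed from different starts, and in each panel at least 1 open symbol lies above the filled ones of its replicate.

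Tnfrsf4 and Tnfrsf18 encode the costimulatory receptors OX40 and GITR. They lie on the + strand of chromosome 4, at chr4:156013843-156016612 and chr4:156026164-156028895, with 9.55 kb between them. Their windows shared 8 regions, which are 88.9% of those of Tnfrsf4 and 100% of those of Tnfrsf18. The region at the Tnfrsf4 promoter, chr4:156013425-156014639, had a fold of 4.18 in replicate 1 (95% counting interval 3.34 to 5.18) and 4.56 in replicate 2 (3.84 to 5.39). The region at the Tnfrsf18 promoter, chr4:156025987-156026572, had 3.35 (2.69 to 4.11) and 2.94 (2.41 to 3.54). In replicate 2 these intervals do not overlap, and the Tnfrsf18 promoter was the lowest of the 9 on this scale in both replicates.

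Of the 7 regions away from both promoters in the Tnfrsf4 window 3 were stronger than both, and 4 were weaker than the Tnfrsf4 promoter in both replicates. The intergenic region at chr4:156021496-156022807, 8.31 kb downstream of the Tnfrsf4 start and 4.01 kb upstream of that of Tnfrsf18, had folds of 8.27 (7.18 to 9.49) and 8.66 (7.70 to 9.72). Its summit pileups, the counts at the summit recovered from the deposited fold and p-value, were 201 and 289, the highest of all 54 regions in both replicates. This is the region whose sequence carries the NF-kB and GATA matches. Upstream of Tnfrsf4 by 5.39 kb, in intron 4 of Sdf4, chr4:156007827-156009081 had folds of 7.25 and 7.56. Downstream of the Tnfrsf18 start by 5.30 kb, chr4:156030628-156032658 had 6.59 and 7.18. Of the weaker 4, the region in intron 5 of Tnfrsf4, chr4:156015532-156016705, had 2.49 and 2.29. The other 3 had 3.28 and 3.40 (chr4:156004045-156004511), 2.26 and 3.30 (chr4:156010218-156010647), and 3.19 and 3.20 (chr4:156032938-156033807), and no shared region lay in the Tnfrsf18 body other than that at its promoter.

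Tnfrsf9 encodes the costimulatory receptor 4-1BB, and its record spans chr4:150914562-150946102 on the + strand, within the much longer gene Camta1 for part of its length. Its protein-coding transcripts in the basic annotation have 5 starts, and the 2 at the 5′ side and the last, at 150929676, were not covered by a shared region. From the start at 150920155 the nearest region, chr4:150917211-150918008, ended 2147 bp upstream and had folds of 6.07 and 6.86. The open promoter of Tnfrsf9 was found at internal starts: chr4:150924085-150925403 covers the start at 150925306, with 5.61 (4.35 to 7.12) and 6.48 (5.35 to 7.78), and chr4:150927223-150928342 covers that at 150927999, with 5.22 and 5.68. Relative to 150927999 the summits of replicates 1 and 2 lay at -16 and -55 bp, and relative to 150925306 at -788 and -869 bp, where negative values are upstream. The gene record itself begins farther upstream, inside chr4:150914170-150915787 (5.19 and 5.34), which also covers a start of Park7, a redox-protective protein encoded on the opposite strand.

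Elsewhere in the Tnfrsf9 body 3 regions in intron 6 had folds of 2.47 to 4.19, among the weaker ones of the 54. Its strongest region outside promoters was chr4:150964228-150965782, in intron 24 of Camta1, with 10.5 (8.58 to 12.8) and 10.7 (9.00 to 12.5), and it lies beyond the 3′ end of Tnfrsf9. The nearest annotated start to its centre was that of Uts2, at 32092 bp, so that the assignment to Tnfrsf9 rests on the window alone. The second Park7 region, chr4:150909269-150910143, had folds of 6.08 and 6.66.

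Tnfrsf8 and Tnfrsf1b encode CD30 and the second TNF receptor, and lie on the - strand of chromosome 4, 20.3 kb apart, at chr4:145267137-145315164 and chr4:145213463-145246870. Their windows shared 4 regions, 36.4% of those of Tnfrsf8 and 44.4% of those of Tnfrsf1b. The Tnfrsf8 promoter, chr4:145314921-145315418, had folds of 3.93 (3.23 to 4.74) in replicate 1 and 5.62 (4.84 to 6.49) in replicate 2, and these counting intervals do not overlap. Downstream of the start by 4.04 kb, in intron 1, chr4:145310781-145311436 had 6.11 and 7.45, with pileups of 152 and 225. Upstream by 8.38 kb, chr4:145323130-145323915 had 5.98 and 9.48, again with replicate intervals apart. The other body regions, chr4:145312434-145313285 in intron 1 and chr4:145300145-145300741 in intron 2, had 3.60 and 3.23, and 4.82 and 4.86.

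The Tnfrsf1b promoter, chr4:145246097-145247310, had folds of 7.79 (6.26 to 9.59) and 7.60 (6.25 to 9.15). Upstream of it by 7.78 kb, in the space between both genes, chr4:145254260-145255033 had 8.69 (7.20 to 10.4) and 8.14 (6.85 to 9.62). It is the region with the AP-1 match printed above, and by mean fold it is the strongest outside promoters for Tnfrsf1b and, since it falls in that window too, for Tnfrsf8. In replicate 2 alone the region 8.38 kb upstream of Tnfrsf8 was stronger in the Tnfrsf8 window, at 9.48. The intervals of this region and of the Tnfrsf1b promoter overlap in both replicates. The Tnfrsf1b body held 4 further regions: chr4:145221452-145222472 in intron 8 with 4.60 and 7.95, chr4:145214323-145214799 in exon 10 with 4.13 and 5.32, and chr4:145229253-145230263 and chr4:145236191-145236409 in intron 1 with 3.82 and 5.85, and 4.70 and 3.91. The promoter of Vps13d, a lipid transfer protein, at the far end of the window had 9.13 and 10.6.

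Tnfrsf14 encodes HVEM, which binds the TNF family ligand LIGHT and also the inhibitory receptor BTLA. Its window held 3 regions, the fewest of the 9 windows, with high folds in its 2 flank regions. The promoter, chr4:154927086-154928572, was the highest of the 9 by mean fold, with 8.89 (6.98 to 11.2) and 8.31 (6.59 to 10.3). On the 3′ side chr4:154904347-154905127 had 12.9 and 15.5, the highest fold of the 54 in both replicates, and lies 5627 bp from a start of Fam213b. Upstream of a Tnfrsf14 start by 16012 bp, chr4:154943812-154944615 had 12.9 and 14.1. No shared region lay in the gene body other than that at the promoter.

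Among the death domain receptors, Tnfrsf25 encodes DR3, the receptor of TL1A. Its promoter, chr4:152115746-152116638, had folds of 4.55 (3.45 to 5.90) and 6.55 (5.40 to 7.88). The strongest region in its window, chr4:152138322-152139186, had 10.2 (8.42 to 12.3) and 10.1 (8.48 to 11.9) and lies in exon 4 of Espn, an actin-bundling protein of hair cells and microvilli. The window also held promoters of Espn, with 6.35 and 5.85 for the stronger, and of Plekhg5, with 5.66 and 5.34.

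Tnfrsf1a, on chromosome 6, encodes the first TNF receptor. Its promoter, chr6:125349371-125350315, had folds of 5.05 (3.69 to 6.76) and 5.95 (4.54 to 7.66), and a region in its intron 1, chr6:125352990-125353914, had 4.58 and 3.31. In its window the strongest region outside promoters was chr6:125377735-125378627, in intron 3 of Plekhg6, with 6.77 (4.90 to 9.12) and 9.76 (7.81 to 12.1). Intervals of that region and the promoter overlap in replicate 1 and not in replicate 2.

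Fas, on chromosome 19, encodes the death receptor of Fas ligand. The Fas promoter, chr19:34290128-34291121, had folds of 7.18 (5.57 to 9.12) and 9.51 (7.80 to 11.5). In intron 1, 8.54 kb downstream of a start, chr19:34298492-34299943 had 9.97 (7.87 to 12.5) and 12.1 (9.78 to 14.8), and it was the strongest region of any receptor gene body outside promoters in both replicates. Its interval overlaps that of the promoter in both replicates.

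In each of the 9 windows the shared region outside promoters that was strongest by mean fold had a higher fold than the gene's own promoter in both replicates. This held for 29.0% of all genes with an open promoter and a region outside promoters, and for 29.6% of those with 3 to 11 regions in the window, the range of the receptor genes. With the counting intervals apart in both replicates it held for 5 receptor genes, Tnfrsf4, Tnfrsf18, Tnfrsf9, Tnfrsf8 and Tnfrsf25, against 7.86% of the same genes with an open promoter and a region outside promoters. On the recovered pileup, which does not divide by local background, 7 of 9 had a higher region outside promoters in both replicates, against 25.5% of those genes. Tnfrsf1a and Fas did not: at Fas the pileups were 75 and 93 outside promoters and 65 and 106 at the promoter. The 9 are not independent, since Tnfrsf4 and Tnfrsf18 have the same strongest region, as do, by mean fold, Tnfrsf1b and Tnfrsf8, and the strongest of several regions is set here against a single promoter. For Tnfrsf25 and Tnfrsf1a its centre lay 2429 bp from a start of Espn and 2612 bp from one of Plekhg6. Both regions would overlap a 2.5 kb promoter of those genes, and the comparison was not repeated at that setting. At Tnfrsf9, Tnfrsf8, Tnfrsf14 and Tnfrsf4 too the nearest start was another gene's: Uts2, Tnfrsf1b, Fam213b and Tnfrsf18. Assignment of these regions to the named gene rests on the window. The range of 3 to 11 regions takes in 7956 of the 9609 genes compared. The share of 29.6% is therefore not matched to the receptor genes on number of regions.

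**Figure D2:**
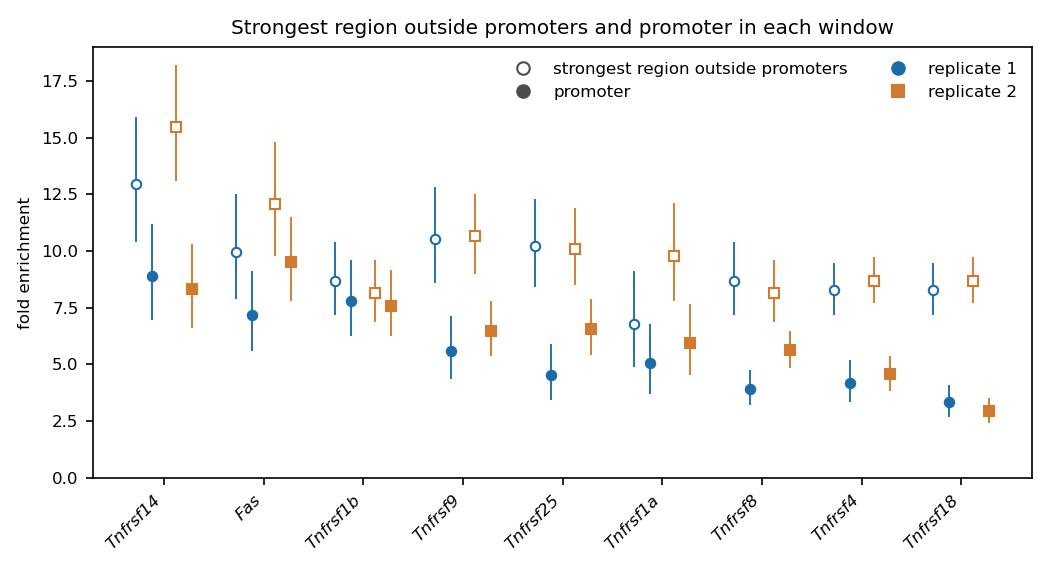
Fold enrichment of the strongest shared region outside promoters (open symbols) and of the promoter (filled symbols) for each gene, in replicate 1 (circles) and replicate 2 (squares), with 95% counting intervals as bars. Genes run in order of mean promoter fold, and the open symbol lies above the filled one in both replicates of all 9.

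By mean fold the promoters ran from Tnfrsf14 (8.60) and Fas (8.34) through Tnfrsf1b (7.70), Tnfrsf9 (6.04), Tnfrsf25 (5.55), Tnfrsf1a (5.50), Tnfrsf8 (4.77) and Tnfrsf4 (4.37) to Tnfrsf18 (3.14). Neighbours in this order had overlapping intervals in both replicates, except Tnfrsf4 and Tnfrsf18 in replicate 2. The values of the replicates of neighbours overlapped in range too, except between Tnfrsf1b and Tnfrsf9 and between Tnfrsf4 and Tnfrsf18. Compared with all shared regions at promoters, the receptor promoters were low on this scale: the highest, in replicate 1 that of Tnfrsf14, stood at percentile 48.1 and the lowest, that of Tnfrsf18, at 4.59. In replicate 2 the range was 44.0 (Fas) to 1.67 (Tnfrsf18).

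The pileup gave another order. The median promoter pileup of the 9 genes was 72 in replicate 1 and 109 in replicate 2, against 77 and 107 over all shared regions at promoters. The local background at those promoters was higher, with medians of 10.8 and 16.1, against 7.40 and 9.37. It was 25.6 and 35.8 at Tnfrsf18, 18.8 and 29.2 at Tnfrsf4 and 26.7 and 31.8 at Tnfrsf8, against 7.21 and 8.51 at Tnfrsf14. As genome-wide background the lowest local background recovered among the regions of each replicate was taken. With pileups divided by that value instead, the Tnfrsf8 promoter was the highest of the 9 in both replicates, at 37.3 and 53.4. Tnfrsf1a was the lowest in both, at 14.8 and 16.9. By the mean of the replicates Tnfrsf4 followed Tnfrsf8, at 34.1 (28.3 and 40.0), though in replicate 1 it lay below Tnfrsf18 (30.4) and Tnfrsf1b (30.0). Tnfrsf14, first by mean fold, became number 8 by the mean, at 23.8 (24.8 and 22.8), though in replicate 1 it lay above Tnfrsf9 and Fas (22.4 each) and Tnfrsf25. Over all 54 regions the median local background was 10.5 and 14.7, against 5.03 and 6.25 over all shared regions, and the median pileup 65 and 100, against 37 and 52. At Tnfrsf4, Tnfrsf18 and Tnfrsf8 a low fold thus stood beside a high local background, with promoter pileups of 82 to 108 in replicate 1 and 107 to 183 in replicate 2.

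**Figure D3:**
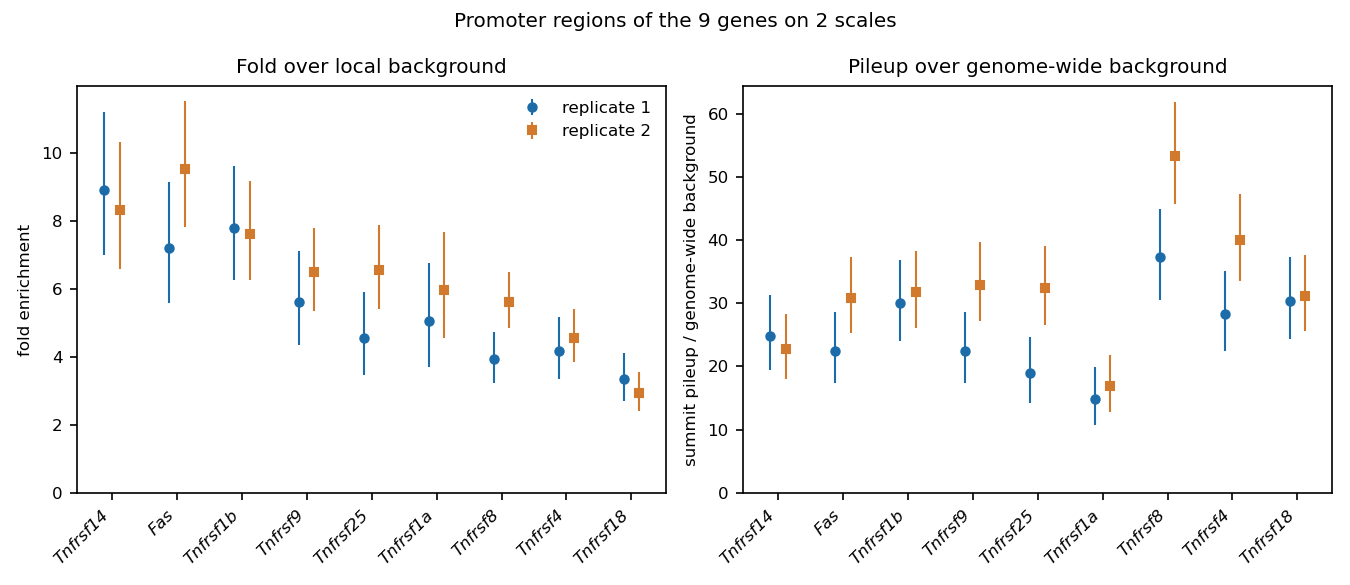
Promoter regions of the 9 genes as fold over local background (left) and as summit pileup over the genome-wide background (right), for replicate 1 (circles) and replicate 2 (squares), with 95% counting intervals as bars. The genome-wide background is the lowest local background recovered in each replicate. Tnfrsf8, Tnfrsf4 and Tnfrsf18 are the 3 lowest on the left in both replicates. On the right, by the mean of the replicates, they rank 1, 2 and 4.

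The replicates overlapped in the windows about as in the lists as a whole. Of the regions in the 9 windows, 54 of 57 in replicate 1 overlapped a region of replicate 2 (94.7%, exact binomial 95% interval 85.4% to 98.9%), against 86.7% of all its regions. In replicate 2 it was 54 of 71 (76.1%, 64.5% to 85.4%), against 73.5% of all. The 3 regions of replicate 1 alone and 17 of replicate 2 alone were weak, with median folds of 3.34 and 3.31. The strongest of them were chr19:34275162-34275382, upstream of Fas, with 3.59 in replicate 1, and chr19:34306713-34307118, in the Fas body, with 5.87 in replicate 2. All 9 regions in the Tnfrsf4 window were found in both replicates, whereas the Tnfrsf8 and Tnfrsf1b windows each had 7 regions of replicate 2 alone, some of them in both windows.

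The fold of the 54 shared regions in replicate 2 was a median of 1.09 times that in replicate 1, with a range of 0.723 to 1.73, against a median of 1.11 over all shared regions. It was higher in replicate 2 for 37 of 54 (68.5%), against 71.3% of all. The counting intervals were apart for 2 of 54, against 1.87% of all shared regions, and both were at Tnfrsf8. With 2 replicates that share a donor record the spread between them may be technical, and the intervals cover counting error only.

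**Figure D4:**
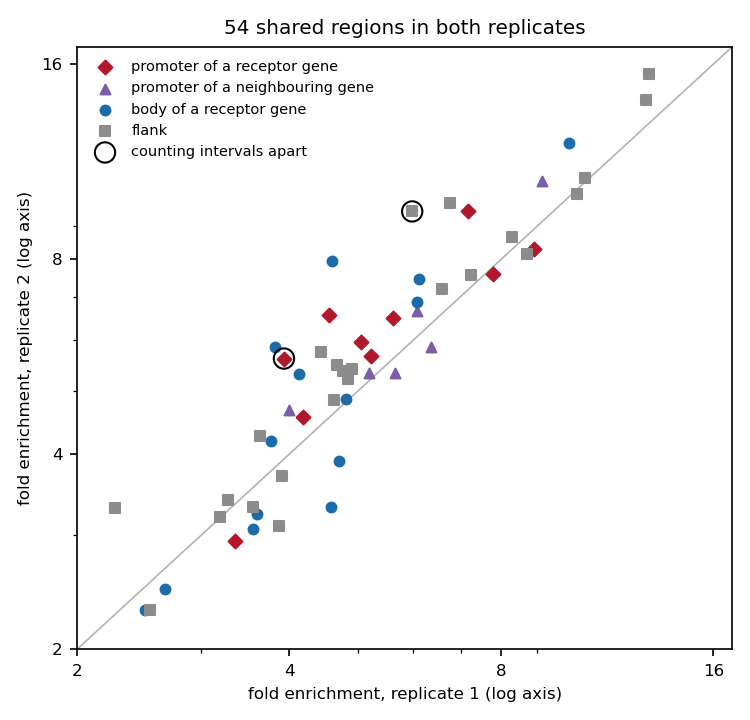
Fold enrichment of the 54 shared regions in replicate 1 (horizontal) and replicate 2 (vertical), both on log axes, by class of region; the line marks equal values. Rings mark the 2 regions with counting intervals apart, the Tnfrsf8 promoter and the region upstream of it.

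On chromosome 4 lay 7 of the 9 genes, from Tnfrsf1b to Tnfrsf18, over 10.8 Mb. Windows overlapped between neighbours only within the Tnfrsf1b and Tnfrsf8 pair and the Tnfrsf4 and Tnfrsf18 pair. The gaps between the other neighbours ran from 1.09 Mb, between Tnfrsf14 and Tnfrsf4, to 5.60 Mb, between Tnfrsf8 and Tnfrsf9.

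In the 200 bp around the stronger summit, an NF-kB consensus sequence was found in 6 of 54 regions (11.1%), against 4.07% of all shared regions. Of the regions at receptor promoters 3 of 10 had one, at Tnfrsf8, the internal start of Tnfrsf9 and Tnfrsf25, against 3.74% of all regions at promoters. The other 3 were the region between Tnfrsf4 and Tnfrsf18, the region 4.36 kb upstream of Tnfrsf8 and one in exon 13 of Espn. In the region upstream of Tnfrsf8 the ETS match lies inside the NF-kB match. These are counts of a few regions, and neighbouring regions are not independent.

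AP-1 matches were found in 15 of 54 (27.8%), against 21.9% of all, and in 11 of 38 regions outside promoters (28.9%), against 28.8%. The share outside promoters is thus that of the background, while 3 of 10 regions at receptor promoters had a match, at Tnfrsf8 and at both internal starts of Tnfrsf9, against 4.51% of all regions at promoters. CTCF matches were in 5 regions (9.26%, against 4.51% of all) and none was at a receptor promoter. GATA matches were in 20.4%, against 18.7%, SP matches in 25.9%, against 22.3%. Those of STAT6, the factor activated by Il4 (TTCNNNNGAA), were in 5.56%, against 5.88%. Matches of the ETS family (GGAAGT) were in 11.1%, against 21.9% of all shared regions. Those of NFAT, the factor activated by calcineurin (TGGAAA), were in 11.1%, against 14.2%. RUNX matches (TGTGGTT) were in 5.56%, against 7.69%. The NFAT and ETS letters share a core, and no ETS, NFAT, RUNX or STAT6 match lay in the 200 bp around the stronger summit of a region at a receptor promoter.

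RefSeq's promoter table for the same build, 250 bases before to 50 after a start, gave 11 windows for the 9 genes, and all but that at the 5′ start of Tnfrsf9 were covered by a shared region. These windows, placed by the start and not by the summit, did hold ETS matches at Tnfrsf14 and Tnfrsf4 and NFAT matches at Tnfrsf4 and at the 5′ start of Tnfrsf9. NF-kB matches lay in them at Tnfrsf8 and the internal start of Tnfrsf9, but not at Tnfrsf25. AP-1 matches lay at Tnfrsf8, at that start of Tnfrsf9 and at Fas. The observed to expected ratio of CpG ran from 0.113 at Tnfrsf14 and 0.185 at Tnfrsf18 to 0.536 at Fas and 0.579 at Tnfrsf8, around a median of 0.384 over 32851 promoters. Tnfrsf14, first by mean fold, was thus the poorest of the 9 in CpG.

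The ligands and signalling partners were open as well. Of 9 ligand genes 8 had an open promoter. Tnfsf18, the ligand of GITR, had none, with 3 regions in its window. The ligand of OX40, Tnfsf4, had promoter folds of 5.70 and 4.92, that of 4-1BB, Tnfsf9, had 4.36 and 3.48, and Fasl had 6.63 and 7.47. Of 19 other receptors of the family 15 had an open promoter, with the most regions, 6 each, at Tnfrsf13b, Tnfrsf22 and Tnfrsf26. Eda2r, Edar, Tnfrsf11b and Tnfrsf17 had none. All 21 signal transducers had one, and Cflar, an inhibitor of caspase-8, had the most regions, 9, followed by Casp8, Traf1 and Traf2 with 7 each. Against the 58.3% of all genes these shares are descriptions of lists chosen by function.

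The label of the cells was checked against markers. All 6 T cell genes and all 4 Th2 genes (Gata3, Il4, Il13 and Il5) had an open promoter in both replicates. None of 3 B cell, 3 myeloid and 3 CD8 or natural killer cell genes had one, and neither did Foxp3, the factor of regulatory T cells, although its window held 7 shared regions.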

How the data were processed

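ATAC-seq was available for 2 replicates of Th2 cells as lists of open regions on mm10, called from 1 alignment per library, per the file headers. Not given in the sources used here are the aligner, the peak caller, their versions and any shift of reads for the transposase. Region names also hold "ASTARR", "insert" and a number of hours, unexplained in any label or header, so it is not known whether the fragments came straight from the cells, or from which event the hours count. The deposited fold enrichment is a ratio of summit height to local background. Both the −log10 p-value and the −log10 q-value deposited (lowest −log10 q of 1.00 and 1.01) are the authors' own, and the deposited score was not used.

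Depth is not stated. Summit pileups were recovered as the whole numbers that, with a Poisson background and a pseudocount in the fold, give back the authors' −log10 p to within 0.001, for 51546 of 51557 and 60848 of 60891 regions. Their medians were 31 and 37. The genome-wide background of each replicate was not given and was taken as the lowest local background recovered among its regions, 2.90 and 3.43. The pileup unit is not stated, and the intervals are exact Poisson 95% limits on it, divided by background.

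Regions, promoters (any start of a protein-coding transcript of GENCODE M21 basic, 1 kb) and windows (20 kb) were joined with Python 3.11.15, pandas 2.3.3, NumPy 2.4.6 and SciPy 1.17.1, and sequence was read from GRCm38 with pysam 0.24.0. Joining and recovery were tested on simulated data. With 1 group there was no test between conditions, and no p-value is given. The genes, lists and consensus sequences were chosen with earlier results of these data known. The text names all receptor genes, their promoter and body regions, the strongest region outside promoters, neighbours with a promoter in the window, and list members with most regions or no open promoter. Fold by pileup, and promoters by region centre, were alternatives added after the data were seen.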

Additional observations from a re-analysis of the deposited data

How the results depend on the processing

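All 9 promoters stayed open under the 9 alternatives tried for them, among them 1 replicate alone, an overlap of 50%, a −log10 q of at least 10, promoters of 500 bp or 2.5 kb and the 5′ end of the gene record as the only start, which for Tnfrsf9 is the region shared with Park7. Some of these alternatives could hardly have closed a promoter. Promoters of 2.5 kb and the comprehensive annotation can only add open promoters, and 1 replicate alone asks for no overlap between replicates. With the stricter q, regions outside promoters numbered 24 instead of 38. With the gene body alone, distinct regions numbered 25, the median per window was 2, regions in more than 1 window 0 and regions outside promoters 14. With 1 replicate alone distinct regions numbered 57 to 71. The order of promoters depended on the scale: by the mean of the replicates, on pileup over genome-wide background in place of fold, Tnfrsf8 ranked 1 instead of 7, Tnfrsf4 2 instead of 8 and Tnfrsf14 8 instead of 1. Of 18 settings tried for consensus sequences 4 moved the share beyond its counting interval, all with windows of 100 bp: AP-1 14.8% (14.7% of all shared regions under that setting), SP 14.8% (14.4%), GATA 9.26% (9.27%) and NFAT 3.70% (6.78%). Counts near 20 limit the weaker regions, and 2 replicates limit every comparison. No paired analysis was possible because there is 1 group.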
